A study of Rattus norvegicus with 42 samples.

Results

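Metanephric mesenchyme of the rat was compared between the late and the middle part of a culture with NGAL, as 4 arrays of days 5 and 7 against 4 arrays of days 3 and 4. These 8 arrays, 2 for each day, were taken by their titles from the 42 arrays of the series. In all groups the tissue was dissected at embryonic day 13.5 and freed of the ureteric bud by trypsin, DNase and pins, and cultures stood on collagen-coated filters. The medium of every culture, uninduced ones included, held a TGF (its letter is lost in the labels), an FGF, dexamethasone, T3 and a prostaglandin, beside insulin with transferrin and selenium. The other arrays used here are the same days with LIF or with the ANX fraction (8 arrays each), earlier days of NGAL culture, fresh tissue and uninduced culture. What the ANX fraction holds, the strain and how many embryos gave 1 array are not given in the sources used here. Replicates are biological per the labels.

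Metanephric mesenchyme is the embryonic tissue from which nephrons form. When it is induced, its progenitor cells condense, form vesicles and turn into epithelium that is joined by cadherins, desmosomes and tight junctions. NGAL, or lipocalin 2, is a secreted carrier of iron-loaded siderophores that can act as an inducer of rat mesenchyme, as can the cytokine LIF. An isolated explant also holds stroma and blood cells left in its vessels, and can carry cells of adjacent tissue. In RNA from whole explants, fewer cells of a type and less RNA per cell cannot be told apart.

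Between the middle and the late days of NGAL culture, some genes of epithelial adhesion (5 of 25 tested), of the BMP pathway (4 of 20) and of early nephron formation (4 of 14) rose, and 3 globin genes fell. Bmp2 counts in the BMP and in the nephron list, and all day means of 1 adhesion gene, Dsc2, lay at background. Members and lists were chosen with earlier results of these data known, so these shares are a description only. Of 11388 genes tested with limma's linear model, 126 (1.11%) were called at a Benjamini-Hochberg adjusted p under 0.05, 70 higher (0.615%) and 56 lower (0.492%) in the late arrays. Among the genes called, the difference on the log2 scale of the RMA intensity ran from 0.31 to 5.04 in size, with a median of 1.01, against a median of -0.0032 over all genes tested. At least a 2-fold difference was present in 65 of them, 40 higher and 25 lower. The 4 late arrays did not overlap the 4 middle arrays for 510 genes (4.48%), of which 91 were also called (0.799% of the genes tested). The estimate of spread came from all 42 arrays. A fit to the 12 NGAL arrays called 18 genes, and 2 groups of 4 arrays taken alone gave 0 calls, with 814 genes at an unadjusted p under 0.05. Leaving out 1 array gave 50 calls without day 5 replicate 1 and 277 without day 7 replicate 1, with 70 without day 3 replicate 1 and 61 without day 4 replicate 2.

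Array medians lay between 83.3 and 88.4 in intensity units over the series, so the arrays were on 1 scale. A labelling control differed among the 8 arrays. The dap spike-in, read as 3' over 5' signal on the log2 scale, ran from 0.77 to 1.48 in the middle arrays and from 0.90 to 1.97 in the late ones, with both day 7 arrays above 1.1 and replicate 2 of days 3, 4 and 5 below it. With this ratio as a covariate 153 genes were called. Only arrays above that ratio gave 76 calls, and arrays below it, where no day 7 array remains, gave 2. The 3' over 5' signal of the Gapdh control probe sets, on the log2 scale, was 0.33 in day 7 replicate 2. In the other arrays of the 8 it was -0.08 to 0.17. The part that this difference played in the values of day 7 replicate 2 was not tested. A gene is described as below the signal threshold where its level lies under log2 5.79 (intensity 55.2). The floored difference given for such genes sets group means under the threshold to it.

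Of 25 tested members of a list of epithelial junction and keratin genes, 5 rose in the late arrays (Epcam, Dsg2, Dsc2, Cldn3 and Cldn4) and none fell. The other 20 did not pass the test. Of the 25 differences 24 were positive, and their median was 0.67. Against the mean of the middle arrays the list's median was 0.16 and 0.30 in the day 5 arrays and 0.39 and 1.145 in the day 7 arrays. Without day 7 replicate 2 the median difference was 0.46. Of all 37 listed genes, 10 lay below the signal threshold in every one of the 8 arrays, the junction genes Cldn7, Ocln and Tjp3 among them. Epcam encodes an adhesion protein of epithelia. Its level in NGAL culture was 5.02 and 5.50 on day 3, 5.24 and 5.69 on day 4, 6.67 and 7.04 on day 5, and 8.20 and 9.71 on day 7. Every late array lay above every middle array, with the day 7 arrays highest. Epcam rose 5.81-fold, by 2.54 (SE 0.36, adjusted p = 0.000373) on the log2 scale. Because both middle days lay below the signal threshold, the floored difference is 2.12.

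The desmosomal cadherins Dsg2 and Dsc2 were called higher with it. Dsg2, desmoglein 2, was at 4.51 and 4.67 on day 3, 5.05 and 5.15 on day 4, 6.28 and 6.55 on day 5, and 6.23 and 7.87 on day 7. The day 3 and 4 arrays all lay below the threshold and the late arrays all above it. Dsg2 rose by 1.89 (SE 0.32, adjusted p = 0.00291), or 0.94 when floored. Dsc2, desmocollin 2, rose by 1.49 (SE 0.26, adjusted p = 0.00362), from 3.39 to 4.03 over the middle arrays to 4.71 to 6.24 over the late ones. All 4 day means of Dsc2 lay below the threshold, and it stayed in the test only through groups with LIF or ANX. Its floored difference is 0, so a rise above background is not established and its size is not known. The desmosomal plaque gene Dsp, desmoplakin, had separate groups too, with 5.73 to 5.97 in the middle and 6.31 to 9.02 in the late arrays, and a difference of 1.47 (SE 0.38, adjusted p = 0.0598).

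Of the tight junction proteins, 2 claudins rose. Cldn3, claudin 3, was at 5.97 and 6.04 on day 3, 6.11 and 6.12 on day 4, 6.75 and 6.70 on day 5, and 7.12 and 8.31 on day 7. The middle arrays were nearly level and the late arrays were all higher. Cldn3 rose by 1.16 (SE 0.23, adjusted p = 0.0103) and Cldn4, claudin 4, by 1.03 (SE 0.26, adjusted p = 0.0479), the latter from levels of 4.69 to 5.15 that lay below the threshold (floored difference 0.42).

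E-cadherin, encoded by Cdh1, is the classical adhesion protein of epithelial cells. Cdh1 was at 4.10 and 4.19 on day 3, 4.05 and 4.15 on day 4, 4.07 and 5.48 on day 5, and 6.75 and 8.15 on day 7. Day 5 replicate 1 stood at the level of the middle arrays, and the 2 arrays of day 7 were far above them. Its difference between late and middle was 1.99 (SE 0.53, adjusted p = 0.0676), which missed the threshold. Day 7 alone against days 3 and 4 gave 3.33 (SE 0.65, adjusted p = 0.00599). Day 7 against day 5 gave 2.67 and was not called (adjusted p = 0.274), so a later timing of Cdh1 was not shown. All Cdh1 arrays outside day 7 lay below the signal threshold. With floored means the late and the day 7 differences from the middle are 0.83 and 1.66. A second probe set of Cdh1, below the signal threshold, had a difference of 0.16. Cdh16, the kidney-specific cadherin, was likewise higher on day 7 (7.85 and 9.98) than in the middle arrays (6.41 to 6.58), with an adjusted p of 0.131 in the late against middle comparison and 0.00833 for day 7 alone. Among keratins, Krt8, Krt18 and Krt19 had positive differences of 0.75, 0.89 and 0.93 and did not pass the test.

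**Figure D1:**
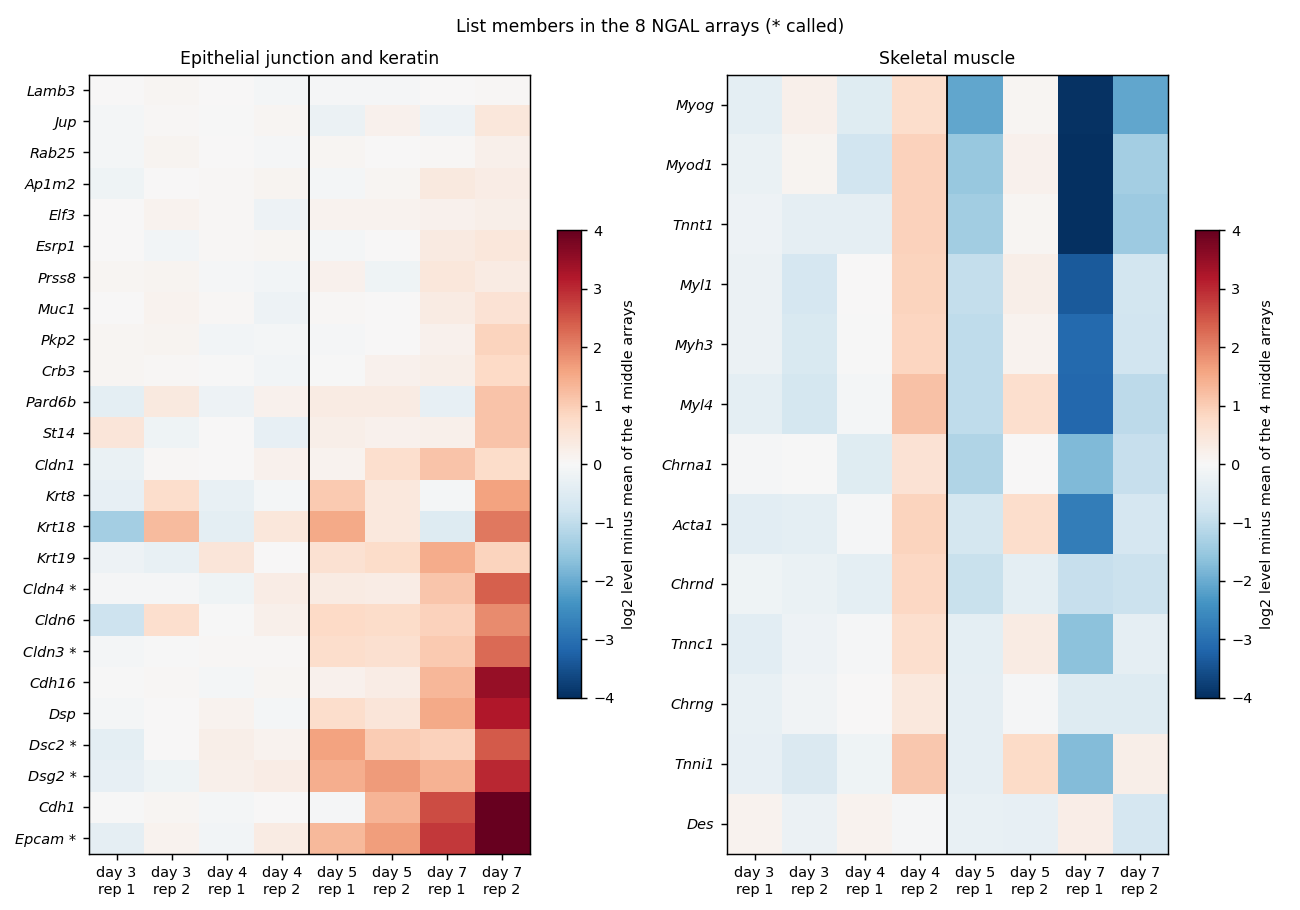
Members of the epithelial junction and keratin list (25 genes, left) and of the skeletal muscle list (13 genes, right) in the 8 NGAL arrays; colour is the log2 level minus the gene's mean over the 4 middle arrays (colours end at 4 and -4), rows are ordered by the late minus middle difference, and an asterisk marks called genes. The epithelial rows are reddest in day 7 replicate 2, and the muscle rows are bluest in day 7 replicate 1.

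RefSeq promoter windows (GRCr8, from 250 bases before to 50 after the start) were read for called genes, to set side by side the sequences of genes that moved together. The letters CAGGTG, an E-box to which repressors and activators of epithelial genes can bind, were searched on both strands (CACCTG on the other); this motif was chosen after sequences of called genes were seen. It was present in 18.7% of all 27457 promoters, one per symbol, in 17.4% of the 9471 promoters of genes tested, in 21 of the 56 promoters found for the 70 risen genes (37.5%) and in 11 of the 45 found for the 56 fallen genes (24.4%). The windows of 3 risen junction genes are shown with the matches in capitals.
Epcam (chr6:12649629-12649928, minus strand): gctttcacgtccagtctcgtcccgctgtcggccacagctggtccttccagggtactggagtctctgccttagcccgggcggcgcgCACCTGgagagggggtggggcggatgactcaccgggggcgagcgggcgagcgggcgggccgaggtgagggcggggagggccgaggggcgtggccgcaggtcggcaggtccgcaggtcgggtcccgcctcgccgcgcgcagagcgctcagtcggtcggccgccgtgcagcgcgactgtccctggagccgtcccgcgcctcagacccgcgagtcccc
Dsg2 (chr18:12121037-12121336, plus strand): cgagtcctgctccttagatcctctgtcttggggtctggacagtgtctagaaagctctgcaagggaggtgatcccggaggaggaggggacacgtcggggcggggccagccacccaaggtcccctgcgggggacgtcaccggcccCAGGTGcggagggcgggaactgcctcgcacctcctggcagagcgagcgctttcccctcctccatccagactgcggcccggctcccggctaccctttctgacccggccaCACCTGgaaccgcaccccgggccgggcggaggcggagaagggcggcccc
Cldn3 (chr12:27346498-27346797, minus strand): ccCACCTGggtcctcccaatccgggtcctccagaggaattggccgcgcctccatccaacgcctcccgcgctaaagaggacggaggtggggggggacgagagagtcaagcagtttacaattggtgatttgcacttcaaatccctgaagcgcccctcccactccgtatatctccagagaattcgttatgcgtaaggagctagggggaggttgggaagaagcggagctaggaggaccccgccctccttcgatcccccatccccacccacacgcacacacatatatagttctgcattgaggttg
The match in Epcam begins 165 bases before the start. Dsg2 holds 2, of which 1 begins 107 bases before the start and the other at base 2 of the transcript, and the match in Cldn3 begins 248 bases before it. A match is a description of letters and shows no binding. Because the motif was chosen after sequences of called genes were seen, its share in them is not a test. G and C made up 75.7% of the Epcam window, 70.3% of the Dsg2 window and 58% of the Cldn3 window, and the shares were not adjusted for this. The 3 windows shown all hold a match, but they were picked and give no share among the risen junction genes. Cldn4 had no promoter entry, and the window of Dsc2 is not shown.

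Of 14 tested members of a list of early nephron formation, 4 rose late, Pou3f3, Jag1, Ccnd1 and Bmp2, and none fell. The other 10 did not pass the test, 11 of 14 differences were positive and the median was 0.84. Pou3f3, or Brn1, is a transcription factor of the developing distal nephron. It was at 4.19 and 4.22 on day 3, 4.77 and 5.60 on day 4, 5.95 and 8.03 on day 5, and 7.68 and 9.44 on day 7. All arrays of days 3 and 4 lay below the threshold and all late arrays above it. Pou3f3 rose by 3.08 (SE 0.58, adjusted p = 0.0068), the largest rise among called genes before flooring. Its floored difference of 1.99 is smaller than those of Ccnd1 (2.50), Tspan8 (2.31) and Epcam (2.12).

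Jag1, a Notch ligand of the renal vesicle, was at 6.75 and 7.84 on day 3, 8.65 and 8.78 on day 4, 9.12 and 9.43 on day 5, and 9.68 and 9.98 on day 7. It climbed within the middle days as well as after them, and the lowest late array was above the highest middle one. Jag1 rose by 1.55 (SE 0.26, adjusted p = 0.00292). Ccnd1, cyclin D1, was at 6.25 and 7.40 on day 3, 9.10 and 10.13 on day 4, 9.95 and 10.87 on day 5, and 10.67 and 11.39 on day 7. Its day means were 6.82, 9.61, 10.41 and 11.03, so the largest step lay between days 3 and 4, where no gene was called, and day 4 and day 5 overlapped. The difference was 2.50 (SE 0.57, adjusted p = 0.0262), and 2 further probe sets of Ccnd1 gave 1.97 and 2.19.

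Several markers by which induced mesenchyme is usually recognised did not pass the test of late against middle arrays. Lhx1, a transcription factor of the renal vesicle, had a difference of 1.12 (SE 0.28, adjusted p = 0.0507), or 1.09 floored, and day 5 replicate 1 (6.12) lay within the range of the middle arrays (5.63 to 6.17). Pax8 and Pax2, transcription factors of the induced mesenchyme, had 1.20 (SE 0.31, adjusted p = 0.0591) and 1.20 (SE 0.32, adjusted p = 0.0673). Day 7 alone against days 3 and 4 gave 1.36 (SE 0.35, adjusted p = 0.0328) for Lhx1. For Pax8 and Pax2 it gave 1.19 (adjusted p = 0.116) and 1.03 (adjusted p = 0.214). Wnt4, the signal that drives the mesenchyme to epithelium, had 0.50 (SE 0.39, adjusted p = 0.79), with day 7 replicate 1 (8.21) below all middle arrays and day 5 above them in 1 of 2 arrays. Hey1, a Notch target, reached 1.20 (SE 0.31, adjusted p = 0.0512). Wt1, a progenitor and podocyte factor, differed by only 0.11 (SE 0.27, adjusted p = 0.955), and it lay at a mean of 9.94 ± 0.47 (SD, n = 4) in the middle and 10.05 ± 0.63 (SD, n = 4) in the late arrays. The slit diaphragm gene Nphs1 was below the threshold and was not tested, and Hnf4a of the proximal tubule had 0.71 (SE 0.41, adjusted p = 0.615). For Hnf4a 3 of 4 day means lay below the threshold, and the floored difference is 0.27. Its 2 further probe sets, both dim, had -0.12 and 0.02.

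The BMP pathway list had 4 of 20 members risen, Nog, Bmp2, Bambi and Id1, and none fallen. Its median was 0.23. Bmp2 is the ligand, Nog (noggin) a secreted antagonist that binds BMPs, Bambi a pseudoreceptor induced by BMP signals, and Id1 a transcriptional target. Nog was at 5.15 and 5.70 on day 3, 5.82 and 6.76 on day 4, 7.46 and 7.66 on day 5, and 6.77 and 8.20 on day 7. The late arrays lay above the middle arrays, day 7 replicate 1 only just. Nog rose by 1.66 (SE 0.28, adjusted p = 0.00291), or 1.48 floored. Bmp2, at 6.96 to 7.67 in the middle and 7.72 to 9.35 in the late arrays, rose by 1.17 (SE 0.23, adjusted p = 0.00991). A second, dim probe set of Bmp2 had a difference of 0.72. Bambi was at 7.06 and 7.87 on day 3, 8.17 and 8.35 on day 4, 8.75 and 8.91 on day 5, and 8.75 and 9.32 on day 7. Its rise of 1.07 (SE 0.15, adjusted p = 0.000373) had the smallest adjusted p of this list. Id1 rose by 0.73 (SE 0.14, adjusted p = 0.00828). Id4, which lay at 7.11 to 8.26 in the middle and 8.78 to 9.74 in the late arrays, had 1.35 (SE 0.36, adjusted p = 0.0693), and Smad9 and Bmp4 had 1.06 (SE 0.29, adjusted p = 0.0854) and 0.81 (SE 0.22, adjusted p = 0.076). Inhba, the activin subunit, had -0.62 (SE 0.58, adjusted p = 0.848).

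The 12 largest rises among called genes whose late and middle arrays did not overlap also held genes with other roles. Atp1b1, the beta subunit of the sodium pump, was at 8.76 and 8.43 on day 3, 8.57 and 8.60 on day 4, 8.98 and 9.54 on day 5, and 10.40 and 11.86 on day 7. The middle arrays spanned little and the day 7 arrays lay above those of day 5, but limma's test of day 7 against day 5 did not call it (adjusted p = 0.227). Atp1b1 rose 3.05-fold, by 1.61 (SE 0.35, adjusted p = 0.0186), and a second probe set gave 1.58. Tspan8, a membrane tetraspanin, was at 5.40 and 5.99 on day 3, 5.92 and 5.97 on day 4, 6.86 and 6.23 on day 5, and 9.03 and 10.57 on day 7, and rose by 2.36 (SE 0.47, adjusted p = 0.011). Against the middle arrays it differed by 0.73 on day 5 and by 3.98 on day 7, and day 7 against day 5 was not called (adjusted p = 0.0821). The floored late against middle difference of Tspan8 is 2.31. Dact2, an inhibitor of Wnt and TGF-beta signals, Ass1, the urea cycle enzyme argininosuccinate synthase, the potassium channel subunit Kcns3 and Proser2, of no role stated here, rose by 1.57 (SE 0.37), 1.55 (SE 0.36), 1.48 (SE 0.25) and 1.85 (SE 0.41), with adjusted p-values of 0.0311, 0.0276, 0.003 and 0.0226. Proser2 lay below the threshold in the middle, and its floored difference is 1.5. Kcns3 lay below it on day 3, with a floored difference of 1.40. Emx2, a homeobox gene that the nephron epithelium and the ureteric bud share, was at 3.58 and 3.55 on day 3, 4.10 and 5.13 on day 4, 4.98 and 6.44 on day 5, and 7.03 and 8.68 on day 7, and rose by 2.69 (SE 0.57, adjusted p = 0.0165) with day 5 overlapping day 4. The Emx2 means of days 3, 4 and 5 lay below the threshold, so the floored difference is 1.03. It was the called member of the ureteric bud and collecting duct list (1 of 11). In that list 8 members, among them Aqp2, Aqp3, Aqp4 and Upk2, stayed below the threshold in all 8 arrays, and the summed intensity was 773 to 999 in the middle and 928 to 1443 in the late arrays. The part that ureteric bud cells played in the epithelial rises was not tested. Lama1, laminin alpha 1 of epithelial basement membranes, rose by 1.42 (SE 0.32, adjusted p = 0.0254), or 1.32 floored. Pdk4, a glucocorticoid-responsive regulator of glucose oxidation, rose by 1.29 (SE 0.28, adjusted p = 0.0168), where the floored difference is 0.94 and a second probe set gave 0.34. Outside the rule for named genes, and chosen after its values were seen, Aldh1a1, a retinaldehyde dehydrogenase, rose by 2.96 (SE 0.64, adjusted p = 0.0179), from a mean of 5.03, below the threshold, to 7.99. Its floored difference was not computed, so the size of its rise above background is not known.

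**Figure D2:**
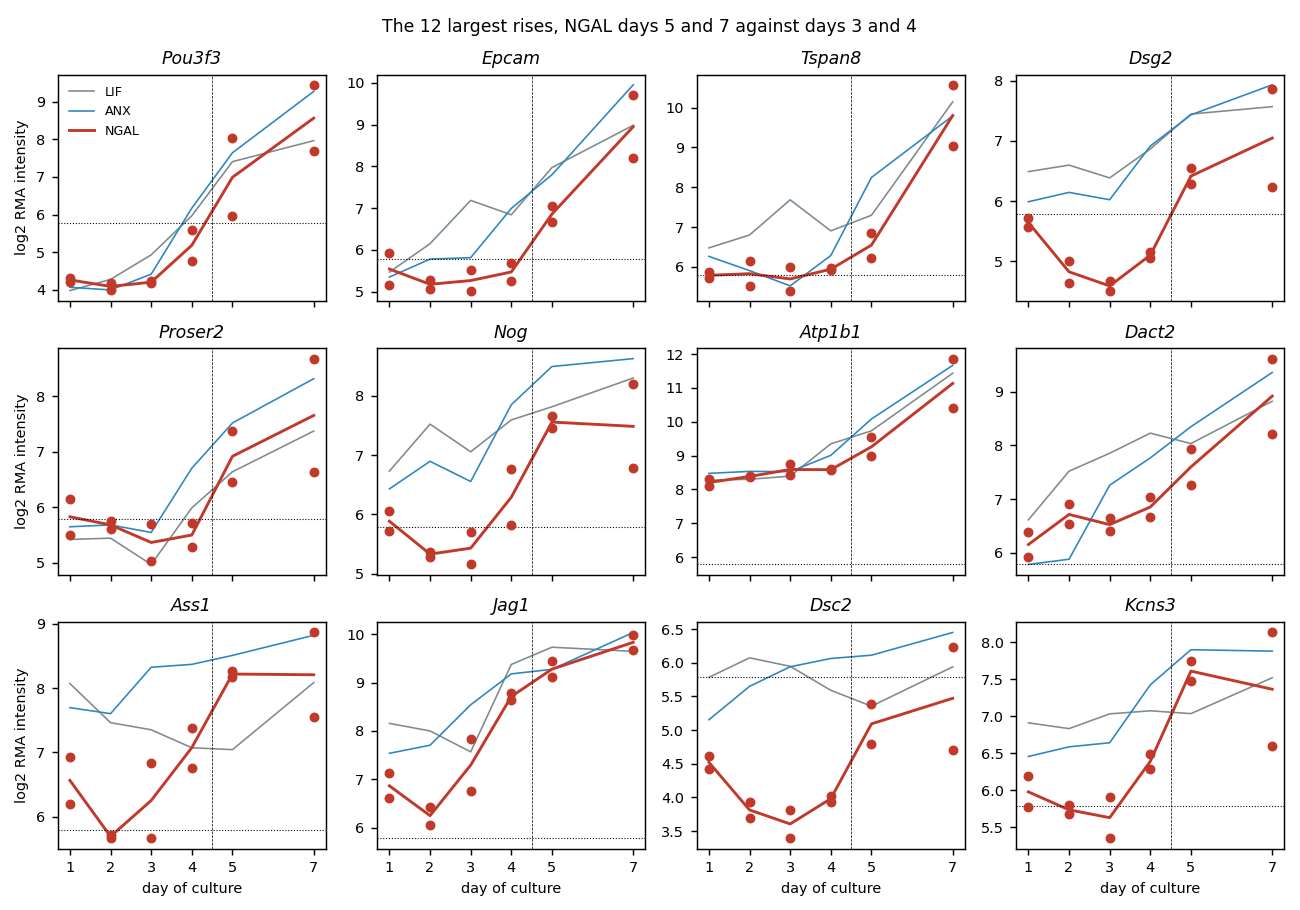
Log2 RMA intensity against day of culture for the 12 largest rises among called genes whose late and middle arrays did not overlap. Red points are the 2 NGAL arrays of each day and the red line their mean, the grey and blue lines are the means of LIF and ANX arrays, the dotted line is the signal threshold of log2 5.79 and the dashed line separates middle from late days. Epcam, Dsg2 and Pou3f3 cross the threshold between days 4 and 5 in NGAL culture, and Dsc2 stays below it on every day mean.

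The largest change of all was the fall of embryonic globin genes, which red cells of the early embryo express. Of 9 tested members of the erythroid list 3 fell and none rose, with a median of -0.30, which was -0.09 without day 3 replicate 1. Hbe1, epsilon globin, was at 12.06 and 10.39 on day 3, 9.22 and 8.55 on day 4, 5.03 and 5.20 on day 5, and 5.11 and 4.72 on day 7. The middle arrays declined from day 3 to day 4, and all late arrays lay below the threshold with a spread of 0.21 (SD, n = 4). Hbe1 fell by 5.04 (SE 0.32, adjusted p = 4.44e-10), a 33.0-fold lower mean, and by 4.27 when floored. Hbz, zeta globin, was at 10.39 and 8.09 on day 3, 7.6 and 6.47 on day 4, 5.35 and 5.19 on day 5, and 4.69 and 4.57 on day 7. The groups did not overlap, and Hbz fell by 3.19 (SE 0.34, adjusted p = 6.81e-06), or 2.35 floored. Hbg1 fell by 1.48 (SE 0.36, adjusted p = 0.0389), or 0.66 floored, since 3 of its 4 day means lay below the threshold, and its call was kept in only 1 of 8 fits that left out an array. The summed intensity of the erythroid list was 959 to 6582 in the middle and 556 to 587 in the late arrays, with Gata1, Klf1, Alas2, Rhag, Epb42 and Hbe2 below the threshold in all 8. Hbe1 was the only gene called between days 4 and 5 (1 gene, 0.00878%), where it fell by 3.77 (SE 0.46, adjusted p = 0.000198). Without day 4 replicate 1 or day 5 replicate 1 this count was 2. Globin genes are near copies of each other, and probe sets may read more than 1 of them.

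The promoter windows of the 2 globins with the largest falls are shown with the CCAAT box in capitals (CCAAT or its complement ATTGG, chosen after the sequences were seen), a motif found in 37.7% of all promoters, in 15 of 56 promoters of risen genes (26.8%) and in 16 of 45 of fallen genes (35.6%).
Hbe1 (chr1:167696231-167696530, minus strand): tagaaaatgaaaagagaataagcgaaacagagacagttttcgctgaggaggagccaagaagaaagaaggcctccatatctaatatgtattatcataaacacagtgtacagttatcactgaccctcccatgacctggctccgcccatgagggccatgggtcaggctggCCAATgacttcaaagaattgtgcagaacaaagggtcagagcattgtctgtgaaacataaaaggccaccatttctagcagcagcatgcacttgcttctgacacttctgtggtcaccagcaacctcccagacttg
Hbz (chr10:15849708-15850007, minus strand): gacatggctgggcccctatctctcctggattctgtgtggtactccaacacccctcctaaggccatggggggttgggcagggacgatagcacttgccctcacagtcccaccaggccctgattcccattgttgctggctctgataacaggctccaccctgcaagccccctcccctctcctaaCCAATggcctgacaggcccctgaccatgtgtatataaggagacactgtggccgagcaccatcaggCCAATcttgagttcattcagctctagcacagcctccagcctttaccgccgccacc
In Hbe1 the match begins 83 bases before the start, and in Hbz the matches begin 70 and 5 bases before it.

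The other large falls had no list in common. Adamts19, a secreted metalloprotease, and Nkain3, a protein that interacts with the sodium pump, fell by 1.79 (SE 0.44, adjusted p = 0.0436) and by 1.48 (SE 0.36, adjusted p = 0.0389). Tppp, a tubulin-binding protein, and Aard fell by 1.48 (SE 0.34, adjusted p = 0.0299) and by 1.42 (SE 0.26, adjusted p = 0.00608). Hmcn1, the matrix protein hemicentin 1, was at 7.75 and 7.41 on day 3, 7.15 and 7.41 on day 4, 6.31 and 6.38 on day 5, and 5.85 and 5.55 on day 7. Its late arrays all lay below its middle arrays, and it fell by 1.41 (SE 0.22, adjusted p = 0.00183), or 1.36 floored. Cd83, an immunoglobulin-family surface protein, fell by 1.34 (SE 0.25, adjusted p = 0.00565), and stood at 6.73 and 7.91 on day 7 against 9.0 and 8.80 on day 5. Igdcc4, a neural-type immunoglobulin superfamily receptor, and Rps4y2, a ribosomal protein S4 copy, fell by 1.31 (SE 0.25, adjusted p = 0.00854) and by 1.17 (SE 0.16, adjusted p = 0.000373). A second, dim probe set of Igdcc4 had a difference of -0.15.

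Actn3, the fast-fibre actinin of skeletal muscle, was at 7.64 and 8.36 on day 3, 7.37 and 7.83 on day 4, 6.73 and 6.82 on day 5, and 5.80 and 6.31 on day 7. The groups did not overlap, and it fell by 1.38 (SE 0.18, adjusted p = 0.000299). The list of 13 tested skeletal muscle genes, which does not include Actn3, had no called member. All 13 differences were negative, 7 of them at an unadjusted p under 0.05, and the median was -0.96. Over all 11388 genes tested, 1190 had an unadjusted p under 0.05 in this comparison, in either direction, and the median was -0.0032. Myog, the myogenic factor myogenin, was at 11.26 and 11.84 on day 3, 11.15 and 12.34 on day 4, 9.56 and 11.71 on day 5, and 7.68 and 9.56 on day 7. Among the late arrays, day 5 replicate 2 and day 7 replicate 1 stood furthest apart, and the groups overlapped. Its difference was -2.02 (SE 0.63, adjusted p = 0.138), and that of Chrnd, the delta subunit of the muscle acetylcholine receptor, -0.77 (SE 0.20, adjusted p = 0.0559). Against the mean of the middle arrays the median of the list was -0.96 and 0.14 in the day 5 arrays and -2.75 and -0.77 in the day 7 arrays, and without day 7 replicate 1 the median difference was -0.49. The summed intensity of the list was 15662 to 33566 in the middle and 4528 to 24277 in the late arrays. Chosen after their values were seen, called genes that striated muscle expresses included Ttn, titin (-1.0, SE 0.20, adjusted p = 0.00941), Cox6a2, a muscle subunit of cytochrome oxidase (-1.02, SE 0.19, adjusted p = 0.0068), Unc45b, a myosin chaperone (-0.64, SE 0.13, adjusted p = 0.0148) and Sln, sarcolipin (-0.70, SE 0.16, adjusted p = 0.0306). The part that muscle cells played in these falls was not tested.

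**Figure D3:**
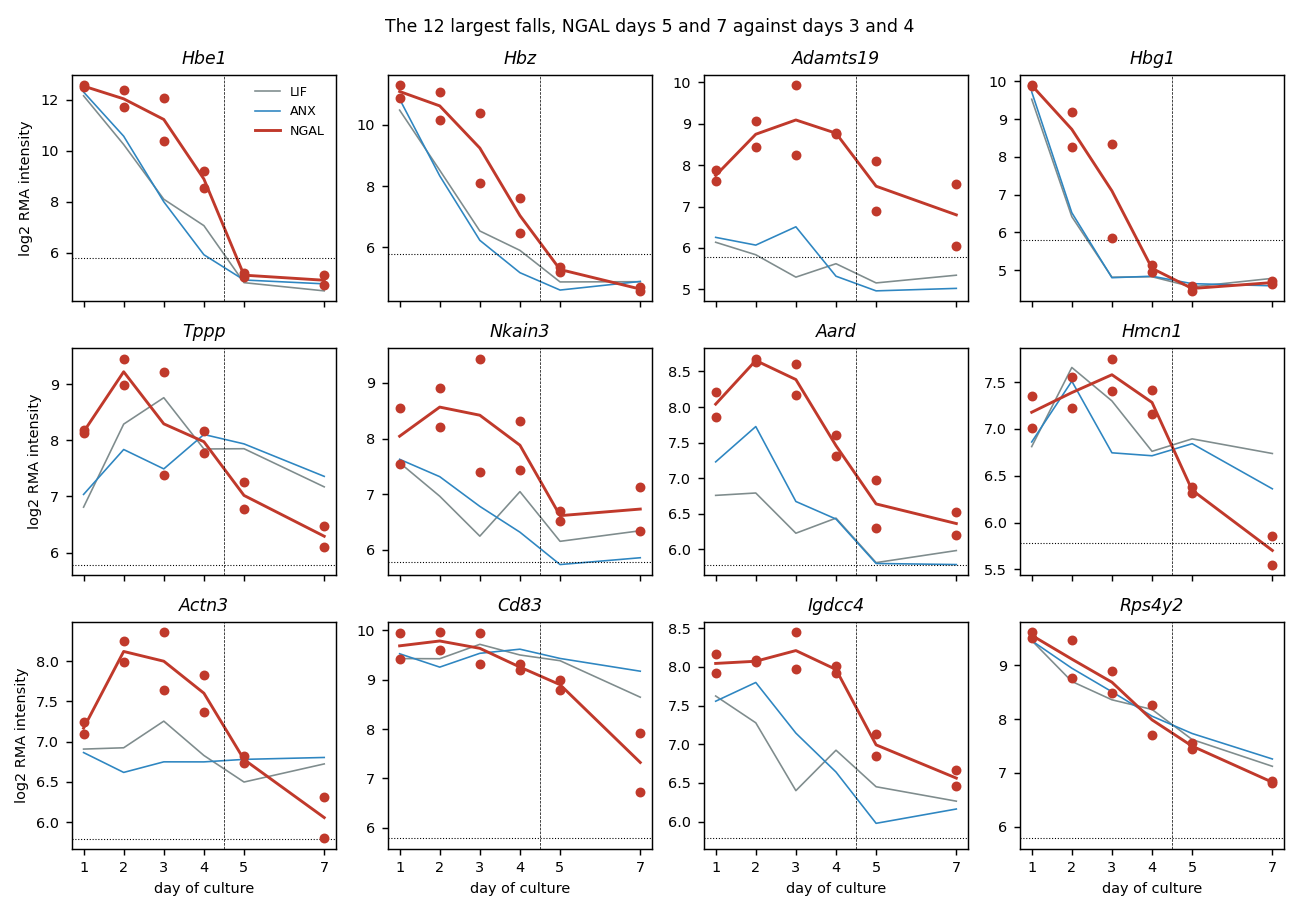
Log2 RMA intensity against day of culture for the 12 largest falls, chosen and drawn as for the rises. Hbe1 and Hbz of all 3 inducers come down to one level below the threshold by day 5, and they are still high in NGAL culture on day 3.

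Among the remaining lists, Tgfbi, a matrix protein induced by TGF-beta, was the called member of 18 TGF-beta and contractile targets. It was at 12.59 and 12.52 on day 3, 12.80 and 12.28 on day 4, 11.97 and 12.06 on day 5, and 12.10 and 11.16 on day 7, and fell by 0.73 (SE 0.18, adjusted p = 0.0415). The list's median was -0.37, and it was -0.06 without day 5 replicate 1, -0.22 without day 3 replicate 2, and -0.61 without day 5 replicate 2 or without day 4 replicate 1. In the contractile genes of this list the arrays did not divide by day. Actg2, smooth muscle gamma actin, was at 9.50 and 9.59 on day 3, 5.28 and 9.31 on day 4, 4.58 and 9.53 on day 5, and 5.63 and 10.11 on day 7, with replicate 1 of days 4, 5 and 7 low and the other arrays high. Cnn1, calponin 1, was at 7.90 and 7.61 on day 3, 4.88 and 7.07 on day 4, 5.05 and 7.32 on day 5, and 5.25 and 8.03 on day 7, with the same 3 arrays low. Stromal genes had no call among 22 tested, with 19 negative differences and a median of -0.32. This median was -0.18 without day 5 replicate 1 and -0.49 without day 7 replicate 1. Foxp2, Twist1 and Hic1 had the most negative ones (-0.87, -0.79 and -0.79). Genes of cholesterol synthesis had no call either. Of 20 differences 19 were positive, 10 at an unadjusted p under 0.05, which 1190 of all 11388 genes tested had in either direction. The mean level of the list was 8.71 to 9.16 in the middle and 9.22 to 9.41 in the late arrays. Ebp and Idi1, both enzymes of that pathway, had 0.57 (SE 0.18, adjusted p = 0.134) and 0.57 (SE 0.26, adjusted p = 0.442). Nephron progenitor, podocyte, proximal tubule and proliferation lists had 0 called of 16, 12, 19 and 31, with medians of -0.07, -0.06, -0.05 and 0.03. Lcn2, the gene of NGAL itself, had 0.78 (SE 0.28, adjusted p = 0.243), or 0.39 floored, and Ncam1, an adhesion molecule of induced mesenchyme, 0.20 (SE 0.32, adjusted p = 0.939). Mki67, the proliferation marker, had -0.04 (SE 0.24, adjusted p = 0.987), Vim, vimentin of mesenchyme, -0.28 (SE 0.16, adjusted p = 0.596), and Col1a1, collagen I, -0.32 (SE 0.66, adjusted p = 0.949). Endothelial and macrophage genes had 0 called of 16 and 15, with medians of -0.15 and -0.12. Loop of Henle and distal tubule genes had 1 called of 8 (Pou3f3), and basement membrane, Notch and Wnt/beta-catenin targets 1 of 15 (Lama1), 1 of 20 (Jag1) and 1 of 13 (Ccnd1). Pdk4 was the called member of 14 glucocorticoid and 22 fatty acid genes. The 15 remaining lists had 0 called, with medians from -0.20 to 0.16: p53, LIF and STAT3, iron, FGF and MAPK, hypoxia and glycolysis, interferon, chemokine and NF-kappaB, fibrillar collagen, matrix proteases, amino acid stress, respiratory chain, lysosome, solute carriers, neuron and Schwann cells, and cartilage. Single arrays moved such small medians, as for p53 genes, with -0.34 without day 5 replicate 2 and -0.12 without day 4 replicate 2, and nothing is read from them.

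**Figure D4:**
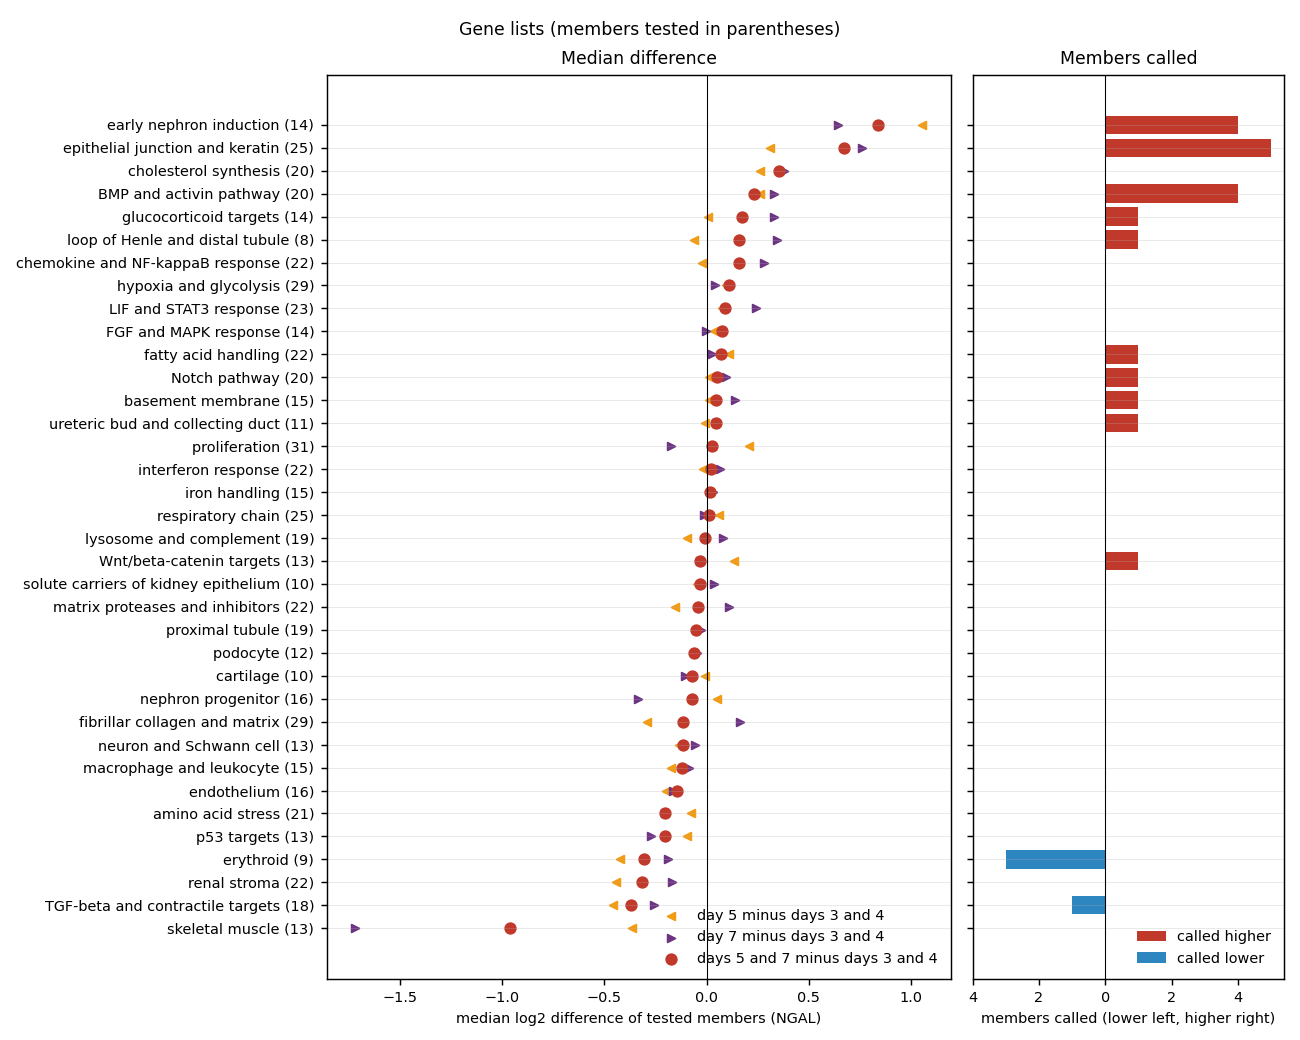
Left, median log2 difference of the tested members of 36 gene lists in NGAL culture, for days 5 and 7 together (circles), day 5 (left triangles) and day 7 (right triangles), each against days 3 and 4; right, number of members called higher and lower. Skeletal muscle has the lowest median, -0.96, without a called member, and early nephron induction the highest, 0.84, with 4.

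Single days were set against each other in the same fit. No gene was called between days 3 and 4 (0%), with limma's smallest adjusted p at 0.355 and 253 genes at an unadjusted p under 0.05, and this count was 9 without day 3 replicate 2 and 3 without day 4 replicate 1. Day 5 alone against days 3 and 4 gave 2 genes (0.0176%), Hbe1 and Hbz. Day 7 alone gave 255 genes (2.24%), 145 higher and 110 lower. Day 5 and day 7 share the middle arrays as their base, so their values are given side by side. Epcam had 1.49 on day 5 and 3.59 on day 7, Pou3f3 had 2.29 and 3.86, and Cd83 had -0.55 and -2.12. Nog was level, at 1.70 and 1.63, as was Hbe1 at -4.94 and -5.14. Of Epcam, Pou3f3, Cd83, Nog and Hbe1, all were called on day 7 and only Hbe1 on day 5. Between day 5 and day 7 there were 7 calls (0.0615%), 6 higher and 1 lower. Ppl, periplakin of desmosomes and the cornified envelope, was at 5.71 and 5.77 on day 5 and at 7.65 and 7.71 on day 7, and rose by 1.94 (SE 0.29, adjusted p = 0.00768) over these days. Fndc3c1 fell by 2.11 (SE 0.41, adjusted p = 0.0426), from 5.46 and 6.15 to 3.67 and 3.73, which is at the threshold on day 5 and below it on day 7. Its floored difference is -0.02, so the size of this fall is not known. Htra1, a secreted serine protease, and Ccdc3 rose by 1.43 (SE 0.28) and 1.58 (SE 0.28), but were not called in the late against middle comparison (adjusted p = 0.233 and 0.486). The count of 7 was 409 without day 7 replicate 2, 11 without day 7 replicate 1 and 3 without day 5 replicate 1.

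The named genes were also read before day 3 and without an inducer, as means of 2 arrays each. Epcam lay below the threshold throughout, at 5.10 in fresh tissue, 5.09 and 5.11 on days 1 and 2 of uninduced culture, and 5.54 and 5.17 on the same days of NGAL culture. Pou3f3 lay below it too, at 4.08 in fresh tissue, 4.16 and 4.16 uninduced, and 4.27 and 4.09 with NGAL. Values below the threshold give no order, so the 2 genes were not above background in these groups. Jag1 had been at 7.55 in fresh tissue and lay at 6.38 and 6.18 uninduced and at 6.87 and 6.25 with NGAL. Ccnd1 started at 9.43 in fresh tissue and was at 6.39 and 6.36 uninduced and at 6.63 and 6.26 with NGAL. For Jag1 and Ccnd1 the middle and late levels therefore followed lower levels on days 1 and 2. Hbe1 was at 13.67 in fresh tissue, 12.99 and 12.35 uninduced and 12.54 and 12.04 with NGAL, and Hbz at 12.73, 11.64 and 11.11, and 11.09 and 10.62. Both globins were highest in fresh tissue and already lower on days 1 and 2 with and without NGAL. The series holds uninduced arrays of days 1 and 2 only, and none of days 3 to 7. Time in culture and an action of NGAL therefore cannot be told apart in the late against middle differences.

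The same late against middle difference was also formed in the cultures with LIF and with ANX. In LIF culture 19 genes were called (0.167%), 11 higher and 8 lower, and in ANX culture 143 (1.26%), 117 higher and 26 lower. Of the 126 genes, which were chosen by their NGAL difference, 118 had the same sign with LIF and 117 with ANX. The share of equal signs over all genes tested was not computed, so nothing is read from these counts. Epcam differed by 1.47 (SE 0.36) with LIF and by 2.48 (SE 0.36) with ANX, and Pou3f3 by 2.23 (SE 0.58) and 3.16 (SE 0.58). Dsc2, by contrast, had -0.12 (SE 0.26) and 0.28 (SE 0.26), from higher middle levels of 5.77 with LIF and 6.0 with ANX against 3.79 in NGAL culture. Hmcn1 had -0.21 (SE 0.22) and -0.13 (SE 0.22).

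The test of the difference itself called 0 genes between NGAL and LIF (0%), while 408 had an unadjusted p under 0.05 and limma's lowest adjusted p was 0.711, so no difference for Dsc2 or Hmcn1 passed. Leaving out 1 array gave 4 calls without NGAL day 7 replicate 1, 2 without NGAL day 3 replicate 2, LIF day 4 replicate 2 or LIF day 7 replicate 2, 1 without NGAL day 7 replicate 2 and 0 without any other. Between NGAL and ANX it called 3 (0.0263%). For Hbe1 the difference between NGAL and ANX was -2.94 (SE 0.46, adjusted p = 0.0137), with -5.04 in NGAL and -2.11 in ANX culture. Its level was 10.06 in the middle of NGAL culture and 6.96 in the middle of ANX culture, and close to 5 late in both. Actn3 had a difference of -1.42 (SE 0.26, adjusted p = 0.048), with -1.38 in NGAL and 0.04 in ANX culture. Mmp3, a matrix metalloprotease, had 2.58 (SE 0.46, adjusted p = 0.048): it changed by 0.53 below the threshold with NGAL and by -2.05 with ANX, from a mean of 8.09 to 6.05. The count of 3 was 0 without NGAL day 5 replicate 1 and also without replicate 2 of ANX day 4 or of ANX day 5. It was 1 without NGAL day 4 replicate 2, ANX day 3 replicate 2 or the first replicate of ANX day 4. It was 5 without ANX day 7 replicate 1, 7 without NGAL day 3 replicate 2, day 4 replicate 1 or day 7 replicate 1, 15 without ANX day 3 replicate 1 and 16 without NGAL day 7 replicate 2.

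**Figure D5:**
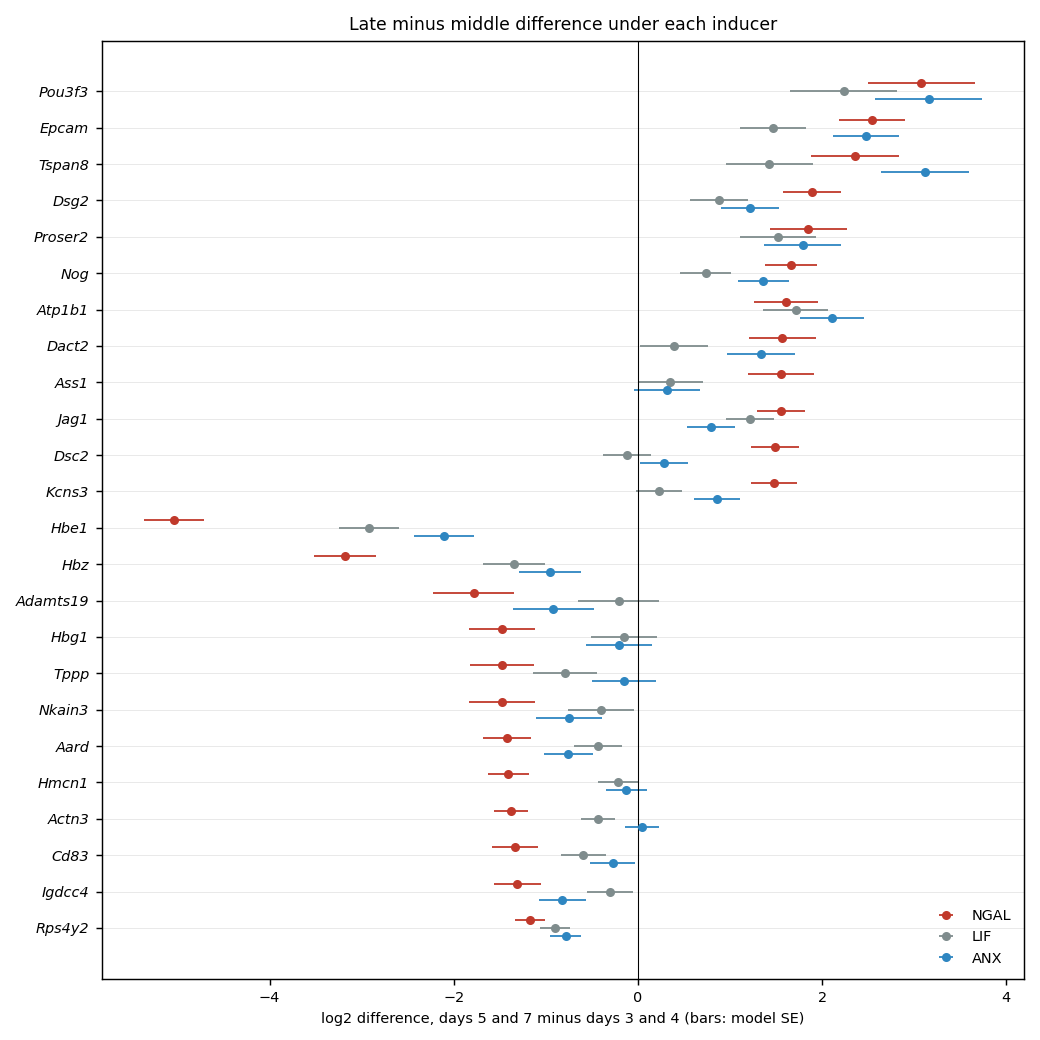
Late minus middle log2 difference of the 12 largest rises and 12 largest falls of NGAL culture without overlap of the arrays, under each inducer; points are the model's estimates and bars its SE. The genes were chosen for their NGAL difference. Epcam and Atp1b1 lie on the positive side for all 3 inducers, and Dsc2, Ass1 and Hmcn1 lie near 0 with LIF and ANX.

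Of 32 called genes named by the rule, 16 kept their call whichever of the 8 arrays was left out, Epcam, Dsg2, Dsc2, Nog, Jag1, Pou3f3, Bmp2, Bambi, Hbe1, Hbz and Actn3 among them. The other 16 lost it without at least 1 array. Day 5 replicate 1 ended 14 of these calls, day 7 replicate 2 ended 13, day 3 replicate 1 ended 12, day 4 replicate 1 and day 5 replicate 2 ended 10 each, day 4 replicate 2 ended 9, day 3 replicate 2 ended 5 and day 7 replicate 1 ended 2. Lama1 and Hbg1 kept the call in 1 of 8 such fits, Dact2 and Tgfbi in 2, Ccnd1, Atp1b1, Ass1, Pdk4, Adamts19, Nkain3 and Tppp in 3, Emx2 and Proser2 in 4, Tspan8 in 5, Igdcc4 in 6 and Aard in 7. No gene changed sign.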

How the data were processed

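The authors read total RNA on Affymetrix rat expression arrays and deposited values in the unit intensity from robust multichip analysis (RMA, no version given), per the labels and the submitters' processing notes. Values ran from 7.6 to 17972 and were taken as linear; log2 was taken here. Of 31099 probe sets, 20832 had 1 gene by the platform table, with 14218 genes after matching to RefSeq by gene number; 436 had several and 9831 none. A gene was represented by its probe set of highest mean. Genes stayed in the test when at least 1 group mean lay over the 40th percentile of all values (log2 5.79), which left 11388. R 4.3.3 and limma 3.58.1 fitted 1 mean per group over 42 arrays in 21 groups (21 residual degrees of freedom, eBayes with trend), and p-values were adjusted over all genes tested. Arrays have no read depth; 2 arrays per group limit the precision. Groups came from titles. Named were the 12 largest rises and falls among called genes whose arrays did not overlap, up to 3 called members per list, up to 5 genes of each inducer difference and preset markers. The 36 lists held 812 members, 611 tested. Members and lists were chosen with earlier results of these data known. Alternatives covered filters, normalization, probe sets, weights, days, the arrays fitted, the replicate number, the spike-in ratio and each array left out. The fit was checked on simulated data.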

Additional observations from a re-analysis of the deposited data

Results flagged for a closer look

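Within the 4 middle or 4 late NGAL arrays, 90 sets of 4 values were examined for an array far from the other 3, and 4 were past Dixon's limit; chance marks about 1 set in 20. Tspan8 was at 5.40 in day 3 replicate 1, below the other middle arrays, which lay between 5.92 and 5.99. Tgfbi was at 11.2 in day 7 replicate 2, below the other late arrays. Lcn2, the gene of the NGAL protein itself, was at 7.73 in day 7 replicate 1, while the other late arrays lay between 5.23 and 5.40, below the signal threshold. Wt1 was at 9.12 in the same array, below 10.26 to 10.49 in the others.

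The late minus middle difference was unlike between NGAL and ANX, by the test of that difference, for Hbe1 (-2.94), Actn3 (-1.42) and Mmp3 (2.58). Without NGAL day 5 replicate 1 none of the genes tested was called in this comparison, and the cause was not tested.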

How the results depend on the processing

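The count of 126 called genes kept within 1.5 times under 9 of the 19 alternatives other than single arrays left out, among them no filter, a stricter filter, quantile normalization again, no variance trend and array weights. It was 194 with a replicate block, 2 with the 8 arrays alone and 1 mean per day, 0 with the 8 arrays as 2 groups of 4 and 18 with the 12 NGAL arrays. It was 65 with at least a 2-fold difference, 2 for day 5 and 255 for day 7 against days 3 and 4, and 12 against day 4. After seeing the data, arrays of high and of low spike-in ratio were fitted apart and gave 76 and 2. Leaving out 1 array gave 50 to 277. The replicate numbers are not known to pair arrays: differences between replicates 1 and 2 correlated between days at 0.0832 (days 5 and 7) to 0.618 (days 4 and 5), across genes. The NGAL and LIF difference had 0 to 4 calls when 1 array was left out. The NGAL and ANX difference, 3 calls, had 1 with the stricter filter, 1 with array weights and 0 to 16 with 1 array left out. Left-out arrays, added after seeing the data, gave 3 to 409 calls for day 7 against day 5, 0 to 9 for day 4 against day 3 and 1 to 2 for day 5 against day 4. Medians of gene lists without single arrays were likewise added after seeing the data. No result changed sign past the threshold; the cause of these shifts was not tested. Genes with day means near the signal threshold are limited in size by the background.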
